A study of Homo sapiens with 192 samples.

Results

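The genes described here are 9 genes that handle the fluoropyrimidines, the drug family of 5-fluorouracil: TYMS, TYMP, DPYD, UMPS, UPP1, UCK2, RRM1, RRM2 and TK1. They were taken by name, from a list drawn up with earlier results of these data known, and all 9 were found by their Ensembl identifiers among the 58243 genes in the counts. The samples were poly(A)-selected, strand-specific RNA-seq libraries of HT29, LS513, HCT116 and LS174T, which are 4 established lines of human colorectal cancer cells. Each line was cultured in 2D and in 3D, and 3 libraries of each culture gave 24 libraries in 8 groups. No drug was given to these cultures. The study kept HCT116 in McCoy medium and the other lines in DMEM, so in any comparison with HCT116 the line and its medium cannot be told apart. How the 3D cultures were grown for RNA is not given in the sources used here, and each line is an established culture rather than a set of independent tumours.

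5-Fluorouracil acts after it has been built into nucleotides. UMPS, and UPP1 followed by UCK2, attach it to ribose and phosphate, TYMP and TK1 together make the deoxyribonucleotide, and the reductase of RRM1 and RRM2 turns ribonucleotides into deoxyribonucleotides. The deoxyribonucleotide product binds thymidylate synthase, the enzyme encoded by TYMS that makes thymidylate for DNA. DPYD encodes the enzyme that starts the breakdown of the drug, a step best known from liver. TYMS, RRM1, RRM2 and TK1 are also part of normal DNA synthesis and are expressed most in dividing cells.

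Library totals ranged from 18723942 to 34277421 counts, with the lowest in HT29 2D replicate 3, and 3 counts in a library, taken as the limit of detection, were 0.0875 to 0.160 CPM. Levels are CPM, counts scaled to a common library size, with TMM factors, and the changes are log2 fold changes of 3D over 2D. All adjusted p-values are from edgeR's quasi-likelihood test over 19387 genes with Benjamini-Hochberg adjustment, and a gene was called where its adjusted p was under 0.05. The labels do not say whether the 3 libraries of a group came from separate cultures, so the p-values measure only the spread between these libraries. The epithelial markers EPCAM, KRT8 and KRT18 were present in all 24 libraries, at 257 CPM or more. KRT20, VIL1 and LGALS4 were at most 2.89, 0.294 and 0.621 CPM in HCT116, and CDX2 was at most 7.72 CPM in HT29. Of the 6 markers of other cell types, COL1A2 had no count, PTPRC and COL3A1 had at most 2 counts, and the summed level of the list was 10.2 to 22.2 CPM in HCT116 3D, nearly all of it COL1A1. LS174T 3D replicate 2 stood apart from the other libraries of its group, with a median chi-square per gene of 13.7 and 22.5 against them, where they gave 2.93 against each other. Results of the 9 genes that rest on it are given with and without it.

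Per kilobase of exon, the DNA synthesis genes were the most abundant of the 9. Averaged over the 24 libraries, TK1 was at 128.9 CPM per kilobase, TYMS at 84.5, RRM2 at 76.4 and RRM1 at 50.6. The activating enzymes came next, with UCK2 at 21.4 and UMPS at 12.8 CPM per kilobase. UPP1 at 4.58 and TYMP at 2.02 CPM per kilobase were lower, and DPYD at 0.142 CPM per kilobase was the lowest of the 9. The 9 genes also differed in how far the groups lay apart. The highest and lowest group means of UMPS differed 1.9-fold and those of TK1 1.97-fold, whereas those of TYMP differed 47.2-fold. Lines differed in most genes of the whole table. In 2D, HT29 differed from LS513 in 60.6% of the genes tested, from HCT116 in 68.8% and from LS174T in 64.6%, and LS513 differed from HCT116 in 68.3% and from LS174T in 57.6%, as HCT116 did from LS174T in 68.3%. In 3D the shares in the same order were 61.9%, 68.5%, 65.5%, 68.5%, 60.9% and 67.2%, so a difference between lines is common.

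**Figure D1:**
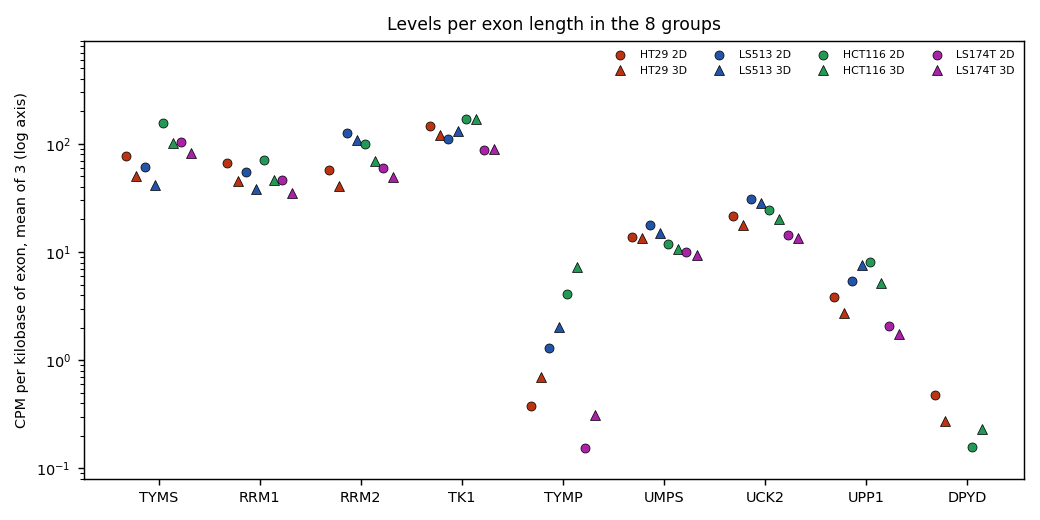
Mean level of each gene in CPM per kilobase of exon (log axis) in the 8 groups, with circles for 2D, triangles for 3D and a colour for each line. TK1, TYMS, RRM1 and RRM2 lie at the top, TYMP spreads over 47.2-fold between groups, and DPYD has no point for LS513 and LS174T, where it had 1 count in all.

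In 3D against 2D, 3 of the genes were called in the same direction in every line. TYMS and RRM1 were lower in all 4 lines, which 2.46% of the genes tested were, and TYMP was higher in all 4 lines, which 3.14% of the genes tested were. In HT29, 7 of the 9 genes were called lower and 1 higher, where 19.6% of all genes tested were lower and 21.1% higher. In HCT116, 5 were lower and 1 higher, against 12.3% and 16.8% of all genes. In LS513, 3 of the 8 genes with enough counts were lower and 1 higher, against 9.9% and 13.7%. In LS174T, 2 of 8 were lower and 1 higher, against 9.15% and 13.1%. The count of lower genes in HT29 was 4 or 5 with any library of that line left out. It was 5 with DESeq2, with its size factors in edgeR, with all genes of at least 1 count or without technical replicate d of each library. TYMP was not called in LS513 or LS174T without certain libraries named below. The study asked for a change below -0.5 or above 1.5 on the log2 scale, with p under 0.05. With these fold cutoffs and edgeR's adjusted p under 0.05, 3 genes counted in HT29, 4 in HCT116 and 2 in LS513. All of them were lower, where 17.4%, 9.28% and 8.03% of all genes counted in either direction. In LS174T 0 of the 9 counted, where 7.26% of all genes did. Of the 8 with enough counts there, 4 had an unadjusted p under 0.05 (edgeR). All changes in that line, from -0.40 to 1.00, lay inside the fold cutoffs. The median log2 fold change of the genes was -0.50 (HT29), -0.17 (LS513), -0.28 (HCT116) and -0.18 (LS174T), where the median of all tested genes lay between 0.00 and 0.02. In bulk samples fewer dividing cells and less RNA per cell cannot be told apart, and the genes of cell division are given after the 9 genes. The 2D and 3D libraries did not overlap for 8 genes each in HT29 and LS513, for 6 in HCT116 and for 3 in LS174T. Among all genes tested, this was so of 52.9%, 42.9%, 40.4% and 38.5% in HT29, LS513, HCT116 and LS174T.

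**Figure D2:**
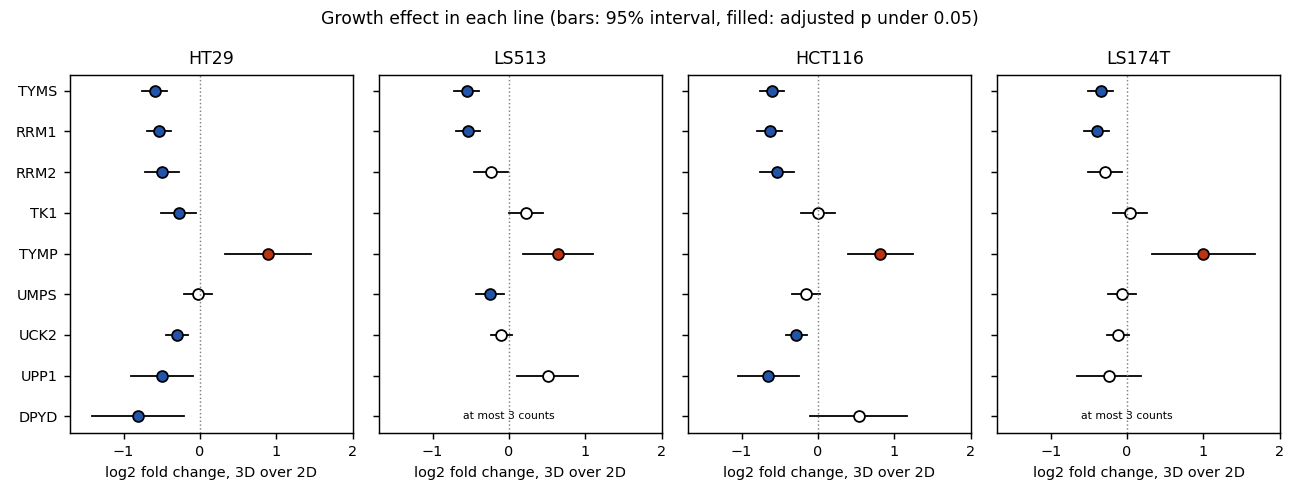
Log2 fold change of 3D over 2D for each gene (rows) in each line (panels), where bars are 95% intervals and filled points have an adjusted p under 0.05. TYMS and RRM1 lie below 0 and TYMP above 0 in all 4 lines, while UPP1 lies on different sides of 0 in LS513 and in the other lines.

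TYMS (ENSG00000176890), the target of the drug's deoxyribonucleotide, spans chr18:657604-673578 on the plus strand (GRCh38, GENCODE 29) in 9 merged exons. In HT29 its level was 196, 185 and 188 CPM in the 3 libraries of 2D and 129, 124 and 125 CPM in those of 3D, a log2 fold change of -0.59 (95% interval -0.75 to -0.43, adjusted p = 4.51e-06). In HCT116 it was 385, 369.6 and 402 CPM in 2D and 243, 241 and 276 CPM in 3D, a change of -0.60 (-0.77 to -0.44, adjusted p = 5.22e-06). In both lines every 3D library was below every 2D library, and the mean fell by 33.6% in HT29 and by 34.2% in HCT116.

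In LS513 the TYMS level was 155, 156 and 143 CPM in 2D and 97.0, 99.9 and 112 CPM in 3D, a log2 fold change of -0.56 (-0.72 to -0.39, adjusted p = 1.76e-05). In LS174T it was 283, 246 and 246 CPM in 2D and 212, 199 and 199 CPM in 3D, a change of -0.35 (-0.51 to -0.18, adjusted p = 0.00336). The libraries again did not overlap, and the mean fell by 32.0% in LS513 and by 21.3% in LS174T. When the 6 LS174T libraries were fitted without the other lines, the change in that line was -0.35 and its adjusted p 0.0651. The 4 changes did not differ from each other beyond their error (interaction test, adjusted p = 0.255). The order of the lines was HCT116, LS174T, HT29 and LS513 in both growth conditions, and each neighbouring pair in it differed (adjusted p at most 0.00243). HCT116 in 3D was at 254 ± 19.9 CPM (SD, n = 3), beside 258 ± 21.2 CPM in LS174T in 2D. ENOSF1, which lies on the opposite strand and shares 967 exonic bases with TYMS, was not called in any line, with log2 fold changes of -0.16 to 0.12.

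RRM1 and RRM2 encode the large and the small subunit of ribonucleotide reductase. RRM1 (ENSG00000167325, chr11:4094707-4138876, plus strand) was at 283, 276 and 276 CPM in HT29 2D and 193, 188 and 193 CPM in HT29 3D, a log2 fold change of -0.54 (-0.70 to -0.38, adjusted p = 1.22e-05). In HCT116 it was 303, 303 and 292 CPM in 2D and 174, 189 and 214 CPM in 3D, a change of -0.63 (-0.80 to -0.47, adjusted p = 2.63e-06). The spread was wider in HCT116 3D than in HT29 3D, and no 3D library reached the lowest 2D library in either line. In LS513 the change of RRM1 was -0.54 (adjusted p = 2.36e-05), from 242, 235 and 217 CPM to 158, 146 and 175 CPM. In LS174T it was -0.40 (adjusted p = 9.44e-04), from 201, 190.0 and 188 CPM to 146, 147 and 147 CPM. RRM1 was therefore lower in 3D in every line with no overlap of libraries. A difference in its change between lines was not called (adjusted p = 0.435). HCT116 and HT29 had the highest RRM1 levels and did not pass the test against each other in 2D (adjusted p = 0.240) or in 3D (adjusted p = 0.950). LS174T had the lowest, although it did not pass the test against LS513 in 3D (adjusted p = 0.181).

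RRM2 (ENSG00000171848, chr2:10120698-10131419, plus strand) was at 296, 296 and 327 CPM in HT29 2D and 199, 228 and 224 CPM in HT29 3D, a log2 fold change of -0.50 (-0.72 to -0.28, adjusted p = 8.27e-04). In HCT116 it was 591, 522 and 486 CPM in 2D and 326, 334 and 442 CPM in 3D, a change of -0.54 (-0.76 to -0.31, adjusted p = 6.67e-04). In LS513 its level was 691, 673 and 661 CPM in 2D and 556, 527 and 635 CPM in 3D. In LS513 and LS174T the libraries did not overlap either, but the changes of -0.24 (-0.46 to -0.01) and -0.29 (-0.51 to -0.07) did not pass the threshold (adjusted p = 0.116 and 0.0564). Without 3D replicate 3 the change in LS174T was -0.35 and passed it (adjusted p = 0.0318), as it did with DESeq2 (-0.28, adjusted p = 0.0397). It did not pass without any other library of that line (adjusted p = 0.0775 to 0.228). Without 3D replicate 2, the library that stood apart, it was -0.22 (adjusted p = 0.228). The change in LS513 passed with the 6 libraries of that line alone (-0.25, adjusted p = 0.0458), but not with any library of the line left out (adjusted p = 0.0501 to 0.356). A test of the difference between lines was not passed (adjusted p = 0.341), but was without HCT116 3D replicate 3 (adjusted p = 0.0482). The level of RRM2 followed another order than that of RRM1, with LS513 highest and HT29 lowest, though HT29 and LS174T did not pass the test in 2D (adjusted p = 0.605). The ratio of RRM2 to RRM1 per exon length was accordingly 0.864 in HT29 2D and 2.29 in LS513 2D, and 0.886 and 2.82 in 3D. A second protein-coding gene, AC007240.1, shares 1077 bases or 20.2% of the exonic length of RRM2 on the same strand. It held 0.472 to 0.498 times the counts of RRM2 in the 4 lines and fell in HT29 by 0.55, in HCT116 by 0.49 (adjusted p = 0.00617) and in LS174T by 0.38 (adjusted p = 0.0374) on the log2 scale, the last in a line where RRM2 was not called. Reads on the shared bases could be counted for both genes.

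TK1 (ENSG00000167900, chr17:78174075-78187233, minus strand) encodes the cytosolic thymidine kinase, which phosphorylates thymidine and fluorodeoxyuridine. TK1 was called in HT29. There it was at 276, 262 and 285 CPM in 2D and 239, 215 and 224 CPM in 3D, a log2 fold change of -0.28 (-0.51 to -0.06, adjusted p = 0.0430), and this call was lost on leaving out any of the 6 libraries (adjusted p = 0.075 to 0.226). It was also lost with DESeq2 (adjusted p = 0.0838), with its size factors in edgeR (0.0856), with all genes of at least 1 count (0.154) and without technical replicate d (0.0515). In LS513 it was at 205, 204 and 217 CPM in 2D and 248, 254 and 228 CPM in 3D, a change of 0.22 (-0.00 to 0.45) that was not called (adjusted p = 0.151), although it was with the 6 libraries of the line alone (adjusted p = 0.0437). The libraries did not overlap in either line, with the 3D libraries lower in HT29 and higher in LS513. The change in HT29 minus that in LS513 was -0.50 (interval -0.82 to -0.18, adjusted p = 0.0338), while the test over all 4 lines was not passed (adjusted p = 0.114). Of the genes tested, 12.1% were called different in either direction, by any amount, between HT29 and LS513. The TK1 difference for that pair was lost in 14 of the 24 fits with 1 library left out (adjusted p = 0.0505 to 0.119), with each of the 6 HT29 libraries among them. It was also lost with DESeq2's size factors (adjusted p = 0.0509) or all genes (adjusted p = 0.0702). The test over the 4 lines was passed without LS174T 3D replicate 2 (adjusted p = 0.021) or replicate 3 (adjusted p = 0.0317). In HCT116 TK1 was at 306, 297 and 354 CPM in 2D and 315, 306 and 336 CPM in 3D, and the interval of the change was -0.22 to 0.22. In LS174T it was at 173, 154 and 159 CPM in 2D and 156, 208 and 136 CPM in 3D, with an interval of -0.18 to 0.27. The highest of the LS174T values was replicate 2 of 3D, without which the change was -0.14 (adjusted p = 0.354). HCT116 had the highest TK1 level in both growth conditions, without passing the test against HT29 in 2D (adjusted p = 0.0799), and LS174T had the lowest.

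**Figure D3:**
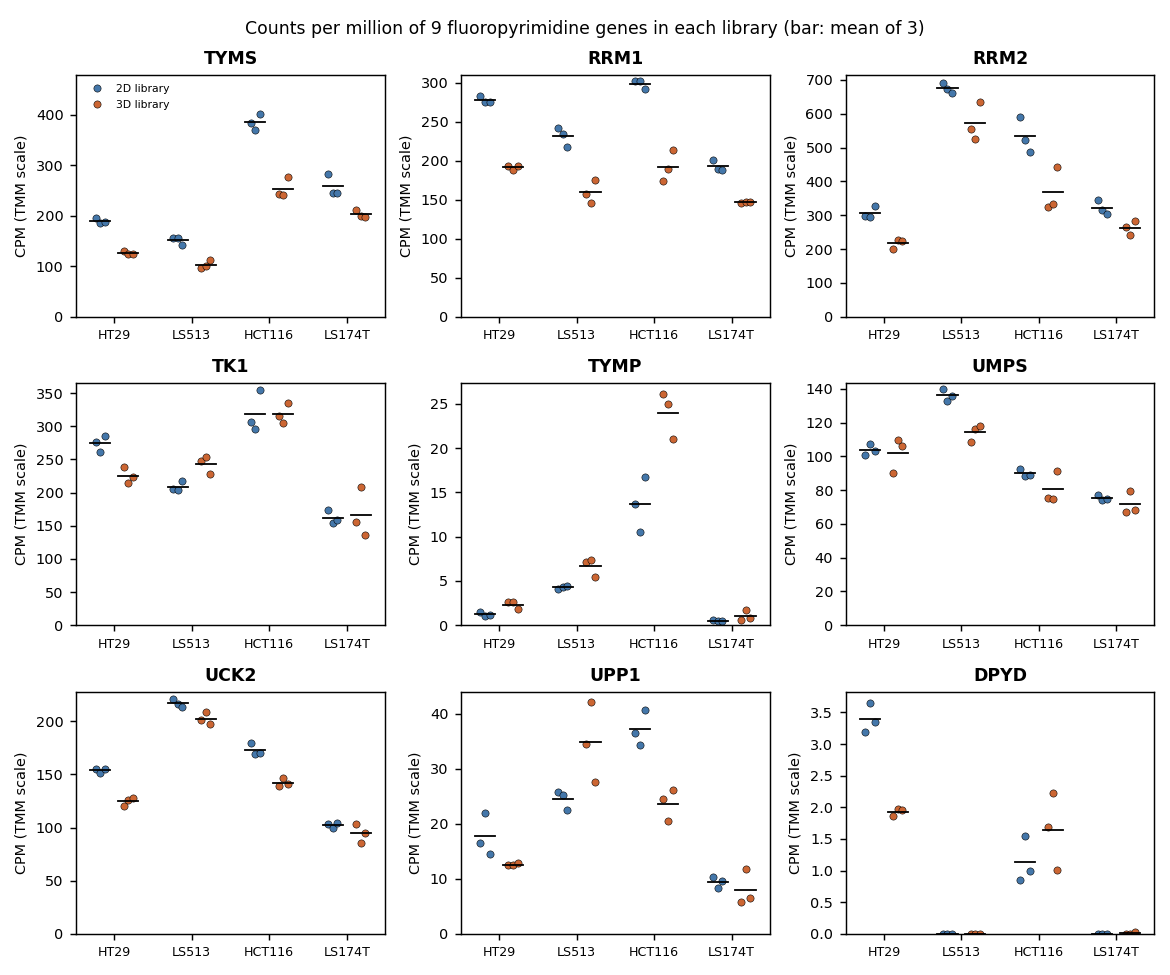
CPM of each gene in each library (points, TMM scale) with the mean of the 3 libraries (bar), for 2D and 3D in the 4 lines. The 2D and 3D points of TYMS and RRM1 are apart in all 4 lines, those of TK1 overlap in HCT116 and LS174T, and DPYD is at or next to 0 in LS513 and LS174T.

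The stretches below are from the promoter windows of the genes that carry a letter match to an E2F site or a CCAAT box, both common in genes of DNA synthesis, and are shown because TYMS and RRM1 were called lower in every line. Sequences are from RefSeq on GRCh38.p14, and 15 windows of 300 bases, from 250 bases before to 50 bases after a start site, were found for the 9 genes. Each line gives 30 bases on the strand of the gene with the match in capitals and its first base counted from the start site. The E2F words were TTTCCCGC, TTTCGCGC, TTTGCCGC and TTTGGCGC, and the CCAAT word was CCAAT, each on either strand.
TYMS, E2F at -39, chr18:657603-657632, plus strand: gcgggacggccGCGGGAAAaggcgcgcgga
RRM1, CCAAT at -28, chr11:4094645-4094674, plus strand: gcatgtccatatCCAATggggcccatggga
RRM2, CCAAT at -123, chr2:10122604-10122633, plus strand: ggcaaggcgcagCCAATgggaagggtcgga
RRM2, CCAAT at -93, chr2:10122634-10122663, plus strand: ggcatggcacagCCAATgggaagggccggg
RRM2, CCAAT at -66, chr2:10122661-10122690, plus strand: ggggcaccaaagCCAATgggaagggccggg
TK1, CCAAT at -77, chr17:78187112-78187141, minus strand: ggccgggcgctgATTGGccccatggcggcg
TK1, CCAAT at -46, chr17:78187081-78187110, minus strand: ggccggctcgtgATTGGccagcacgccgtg
TYMP, CCAAT at -39, chr22:50530107-50530136, minus strand: gggcaccgggggATTGGccggggcgcggcg
UCK2, CCAAT at -38, chr1:165827564-165827593, plus strand: ctgcccgcccggATTGGagcagcagcatca

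An E2F word was present in 3.31% of the 35116 RefSeq windows and in 1 of the 15 windows of the 9 genes, that of TYMS. A CCAAT word was present in 34.6% of all windows and in 7 of the 15 windows of the 9 genes. These windows belong to 5 genes, namely RRM1, RRM2, TK1, TYMP and UCK2, and the windows of a gene can overlap and share a match, as in TYMP. A further CCAAT match of RRM2, at -249 from its other start site, lay too near the edge of the window for a 30-base stretch, and the TYMP match also lay at -112 from a second start site. The 3 RRM2 matches shown share the letters directly after the word, and the E2F match of TYMS is to the reverse strand. Letter matches were present in genes that were lower in 3D (TYMS, RRM1), in TK1, which was called in HT29, and in TYMP, which was higher, and no binding was measured here.

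TYMP (ENSG00000025708, chr22:50525752-50530056, minus strand) encodes thymidine phosphorylase, which links 5-fluorouracil to deoxyribose and is also the last activating step of capecitabine. It was the gene of the 9 called higher. In HCT116, where it was most abundant, TYMP was at 13.7, 10.6 and 16.7 CPM in 2D and 26.1, 24.9 and 21.1 CPM in 3D, a log2 fold change of 0.82 (0.39 to 1.24, adjusted p = 0.00431). In HT29 it was at 1.47, 1.07 and 1.21 CPM in 2D and 2.59, 2.59 and 1.78 CPM in 3D, a change of 0.89 (0.33 to 1.45, adjusted p = 0.0111). Every 3D library was above every 2D library in these 2 lines, and also in LS513.

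In LS513 TYMP was at 4.12, 4.29 and 4.44 CPM in 2D and 7.18, 7.39 and 5.44 CPM in 3D, a log2 fold change of 0.64 (0.18 to 1.09, adjusted p = 0.0377). This call was lost when any library other than 3D replicate 3 was left out, with adjusted p of 0.0709 to 0.146. In LS174T it was at 0.598, 0.483 and 0.444 CPM in 2D and 0.582, 1.68 and 0.860 CPM in 3D, a change of 1.00 (0.33 to 1.67, adjusted p = 0.0306). There the libraries overlapped, and without 3D replicate 2, the library that stood apart, the change was 0.51 (adjusted p = 0.329). The call was also lost without 2D replicate 2 (0.96, adjusted p = 0.0858) or 2D replicate 3 (0.91, adjusted p = 0.10), and with the 6 libraries of the line alone (adjusted p = 0.142). The change did not differ between the lines beyond its error (adjusted p = 0.891). The order of the lines was HCT116, LS513, HT29 and LS174T in both growth conditions, and each neighbouring pair differed (adjusted p at most 0.00121). HCT116 2D exceeded LS174T 2D 26.6-fold. In LS174T the gene rested on few reads, 15 in the lowest library.

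TYMP shares exonic bases on its own strand with SCO2 (339 bases) and ODF3B (347 bases), and the authors counted every gene that a read overlapped. SCO2 held 56.4 times the counts of TYMP in LS174T, 9.92 times in HT29, 5.08 times in LS513 and 1.96 times in HCT116. SCO2 rose in HCT116 by a log2 fold change of 0.54 (adjusted p = 0.0170) and in LS174T by 0.54 (adjusted p = 0.0222), and ODF3B rose in all 4 lines, by 1.31 to 1.75. How many reads of TYMP came from the shared bases was not tested.

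UPP1 (ENSG00000183696, chr7:48088628-48108733, plus strand) encodes uridine phosphorylase, which makes fluorouridine from the drug and ribose-1-phosphate. It was the gene of the 9 whose response passed the test of a difference over the 4 lines. In HCT116 UPP1 was at 36.5, 34.3 and 40.8 CPM in 2D and 24.5, 20.5 and 26.1 CPM in 3D, a log2 fold change of -0.65 (-1.05 to -0.25, adjusted p = 0.0134). In LS513 it was at 25.8, 25.2 and 22.5 CPM in 2D and 34.5, 42.2 and 27.7 CPM in 3D, a change of 0.51 (0.11 to 0.90, adjusted p = 0.0584) that was not called. All 3D libraries were lower in HCT116 and higher in LS513, with no overlap in either line. The call in HCT116 was lost without 3D replicate 2 (-0.57, adjusted p = 0.0634), and LS513 was called without 3D replicate 3 (0.65, adjusted p = 0.0191). LS513 was also called with DESeq2 (adjusted p = 0.0385), with all genes of at least 1 count (0.00606) and with its 6 libraries alone (0.0257). The change in LS513 exceeded that in HCT116 by 1.16 (interval 0.60 to 1.72, adjusted p = 0.0126). The change in HT29 minus that in LS513 was -1.0 (interval -1.58 to -0.43, adjusted p = 0.0177). Of the genes tested, 4.34% and 12.1% were called different in either direction, by any amount, for these 2 pairs of lines. The test over the 4 lines was passed (adjusted p = 0.0145), as it was by 17.1% of the genes tested. Without LS513 3D replicate 2 that test was not passed (adjusted p = 0.0563). The difference between LS513 and HCT116 was called in all 24 fits with 1 library left out (adjusted p at most 0.0435), and the one between HT29 and LS513 was lost without HT29 2D replicate 2 (adjusted p = 0.0895) or LS513 3D replicate 2 (adjusted p = 0.0711).

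In HT29 UPP1 was at 16.5, 22.0 and 14.6 CPM in 2D and 12.4, 12.5 and 12.8 CPM in 3D, a log2 fold change of -0.50 (-0.91 to -0.09, adjusted p = 0.0494). Without 2D replicate 2, the highest of the 6, the change was -0.27 (adjusted p = 0.343), and among the 6 fits with a library left out the call held without 2D replicate 3. It was lost with DESeq2 (adjusted p = 0.0629), with its size factors (0.0701) and without technical replicate d (0.0589). In LS174T it was at 10.3, 8.39 and 9.51 CPM in 2D and 5.76, 11.8 and 6.48 CPM in 3D, a change of -0.23 (-0.66 to 0.19, adjusted p = 0.434). The LS174T libraries overlapped because of 3D replicate 2, and without it the change was -0.61 (adjusted p = 0.0274). HCT116 had the highest level in 2D and LS513 the highest in 3D, the 2 lines differing in each (adjusted p = 0.00777 and 0.0135).

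UMPS (ENSG00000114491, chr3:124730366-124749273, plus strand) encodes the enzyme of the last steps of uridylate synthesis, which also converts 5-fluorouracil to its ribonucleotide directly. UMPS was called in LS513, where it was at 139.7, 133 and 136 CPM in 2D and 108, 116 and 118 CPM in 3D, a log2 fold change of -0.25 (-0.44 to -0.07, adjusted p = 0.0400). This call was lost on leaving out any library but 3D replicate 3 (adjusted p = 0.075 to 0.138), and with all genes of at least 1 count (0.169). In the other lines the libraries overlapped, and the intervals of the change were -0.21 to 0.16 in HT29, -0.34 to 0.03 in HCT116 and -0.25 to 0.11 in LS174T. Without 3D replicate 3 the change in HCT116 was -0.28 and was called (adjusted p = 0.0197). LS513 had the highest level in 2D, at 136 ± 3.38 CPM (SD, n = 3), and LS174T the lowest, at 75.2 ± 1.51 CPM.

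UCK2 (ENSG00000143179, chr1:165827531-165911618, plus strand) encodes a uridine-cytidine kinase, which phosphorylates fluorouridine. In HT29 UCK2 was at 155, 151 and 155 CPM in 2D and 121, 126 and 128 CPM in 3D, a log2 fold change of -0.30 (-0.45 to -0.16, adjusted p = 0.00127). In HCT116 it was at 179.6, 169 and 170.4 CPM in 2D and 139, 147 and 141 CPM in 3D, a change of -0.28 (-0.43 to -0.14, adjusted p = 0.00332). The mean fell by 18.9% and 17.9%, and the libraries did not overlap in either line. In LS513 the change was -0.10 (-0.24 to 0.04) and in LS174T -0.12 (-0.26 to 0.03), neither called. With all genes of at least 1 count the call in HT29 was lost (-0.26, adjusted p = 0.108). A difference in the change between lines was not called (adjusted p = 0.245). LS513 had the highest and LS174T the lowest level in both growth conditions, and all neighbours in the order differed (adjusted p at most 0.0308). MIR3658, whose 56 bases lie in a UCK2 exon, was credited with 109 to 262 counts per library, which shows that reads were given to each overlapping gene.

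DPYD (ENSG00000188641, chr1:97077743-97995000, minus strand) encodes dihydropyrimidine dehydrogenase, the first and rate-limiting enzyme of pyrimidine breakdown. Its counts passed the limit of detection in 2 of the 4 lines. In HT29 DPYD was at 3.19, 3.65 and 3.34 CPM in 2D and 1.87, 1.97 and 1.96 CPM in 3D, a log2 fold change of -0.81 (-1.41 to -0.21, adjusted p = 0.0297). In HCT116 it was at 0.846, 1.55 and 0.995 CPM in 2D and 1.70, 2.22 and 1.00 CPM in 3D, a change of 0.53 (-0.10 to 1.16, adjusted p = 0.202). The HT29 libraries were apart but the call did not hold on leaving out any of the 6 (adjusted p = 0.061 to 0.0972), and the HCT116 libraries overlapped. The change in HT29 minus that in HCT116 was -1.34 (interval -2.21 to -0.47) and was not called (adjusted p = 0.0569). The test over the 4 lines was not passed (adjusted p = 0.0990), but was without HCT116 3D replicate 3 (adjusted p = 0.0353). In the 6 LS513 libraries DPYD had 0 counts, and in the 6 LS174T libraries 1 count in all, in 3D replicate 3. With 3 counts as the limit in each library, HT29 2D was at least 35.1-fold higher than LS513 2D and at least 37.8-fold higher than LS174T 2D. HCT116 2D was at least 11.7-fold and 12.6-fold higher than the same groups. In 3D, HT29 was at least 18.1-fold and HCT116 at least 15.4-fold higher than LS513. The 2D levels of HT29 and HCT116 differed (adjusted p = 0.000121), and the 3D levels did not pass the test (adjusted p = 0.493). The other enzymes of the breakdown, encoded by DPYS and UPB1, were too low to be tested in any line, with group means of at most 0.134 and 0.298 CPM.

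The 60 related genes cover the entry, activation, dilution and targets of the drug, in lists written with earlier results of these data known. Of those with enough counts, 13 of 57 rose and 15 fell in HT29, 8 of 54 rose and 17 fell in LS513, 6 of 54 rose and 22 fell in HCT116, and 8 of 56 rose and 14 fell in LS174T. Among all genes tested, 21.1%, 13.7%, 16.8% and 13.1% rose in HT29, LS513, HCT116 and LS174T. In the same order, 19.6%, 9.9%, 12.3% and 9.15% of all genes fell. The medians of the related genes were -0.02, -0.16, -0.14 and 0.01 in the same order. A call in the same direction in all 4 lines was seen for 8 of the related genes. CAD, CTPS1, MTHFD1, SLC29A1, MBD4, E2F3 and E2F7 fell and CDA rose. Of all genes tested, 2.46% fell and 3.14% rose in all 4 lines.

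Of the genes that make pyrimidine nucleotides from scratch, 2 of 4 fell in each line, where 9.15% to 19.6% of all genes tested fell. CTPS2 rose in HT29, where 21.1% of all genes rose, and DHODH was not called in any line. CAD, which encodes the enzyme of the first steps, was at 219 CPM in HT29 2D and at 107 CPM in 3D, a log2 fold change of -1.04 (adjusted p = 5.68e-08), and fell by 0.41 to 0.51 in the other lines. CTPS1, a CTP synthase, changed by -0.38 to -0.52 in the 4 lines. SLC29A1 encodes ENT1, an equilibrative transporter that carries nucleosides into cells. Its level went from 272 to 158 CPM in LS513, a change of -0.78 (adjusted p = 2.99e-07), and it fell by 0.33 to 0.62 in the others. Among the genes of the folate cycle, which supplies the cofactor of thymidylate synthase, MTHFD1 fell in all 4 lines, by 0.27 to 0.55. SHMT2, a mitochondrial serine hydroxymethyltransferase, was called in LS174T, where it rose by 1.12 (adjusted p = 6.26e-09).

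The prodrug list holds 3 genes, of which CDA was called higher in 4 lines, CES2 in 3 and CES1 in 0. CDA, cytidine deaminase, a step in the activation of capecitabine, rose in LS513, with 0.666 CPM in 2D and 9.98 CPM in 3D, a log2 fold change of 3.91 (adjusted p = 1.16e-07), and in HCT116, with 8.68 and 36.1 CPM, a change of 2.06 (adjusted p = 1.33e-05). In HT29 and LS174T it rose by 0.87 and 0.88. CES2, a carboxylesterase, rose in 3 lines, most in LS513, by 1.35 (adjusted p = 9.31e-09), and was not called in HCT116 (0.29, adjusted p = 0.0556). CES1, another carboxylesterase, had enough counts in HT29 and LS174T, where its changes were -0.16 and 1.57 (edgeR, adjusted p = 0.803 and 0.0649, the latter with an unadjusted p of 0.0162). From other lists, UPRT, named for a uracil phosphoribosyltransferase, rose in HT29, HCT116 and LS174T by 0.36 to 0.51. NT5C, a nucleotidase of pyrimidine deoxyribonucleotides, rose in HT29, LS513 and LS174T by 0.57 to 0.70. Of the transporters, SLC28A1 in HCT116 was listed at 0 CPM in every 2D library and at 0.0772 CPM on average in 3D, so that its call is given without a fold.

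**Figure D4:**
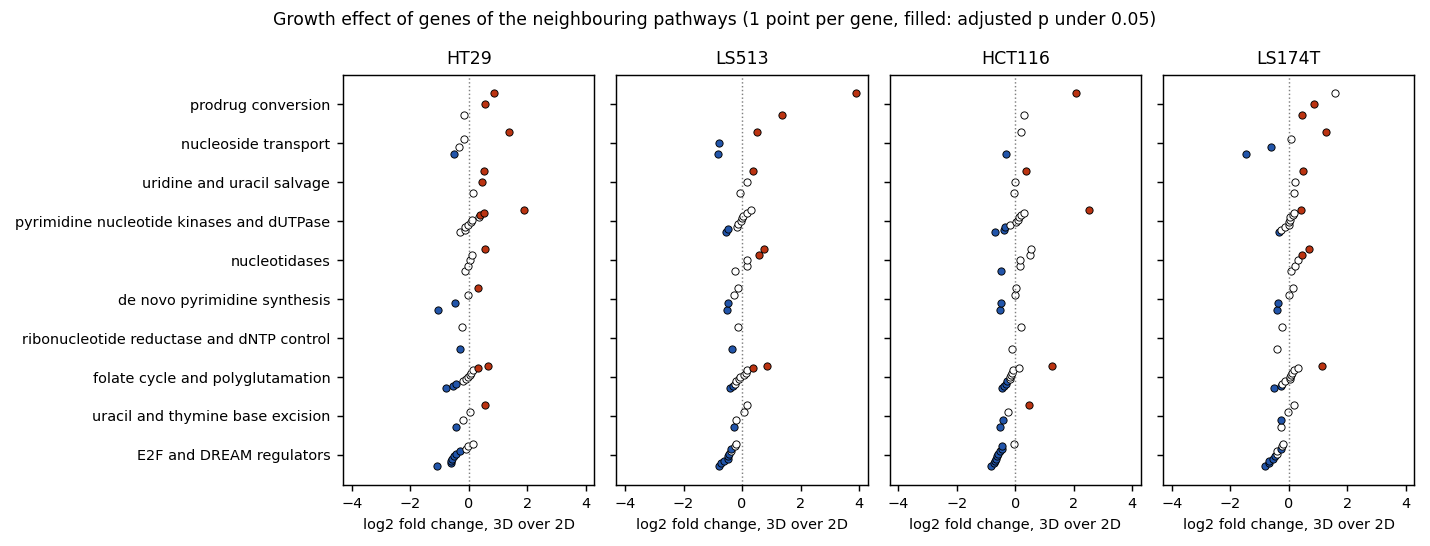
Log2 fold change of 3D over 2D of the related genes, 1 point per gene, by list (rows) and line (panels), with filled points for an adjusted p under 0.05. Genes whose group means both lay under 0.160 CPM are not drawn, which leaves 53 to 56 points a panel, and the points of CDA and CES2 lie to the right while those of the E2F list lie to the left.

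Genes of cell division were lower in 3D beside TYMS and RRM1. Of the 40 genes of an S phase list, taken without TYMS, RRM1 and RRM2, 32 fell in LS513, 31 in HCT116, 20 in LS174T and 19 in HT29, while GMNN rose in LS174T (0.33) and MRPL36 in HT29 (0.41), both named after their values were seen. The medians were -0.45, -0.50, -0.29 and -0.27, where TYMS and RRM1 lay at -0.35 to -0.63. Of the 54 genes of the G2/M list, 36, 35, 18 and 48 fell in the same order. Among all genes tested, 9.9% fell in LS513, 12.3% in HCT116, 9.15% in LS174T and 19.6% in HT29. MKI67, a marker of dividing cells, changed by -1.21 in HT29 (adjusted p = 2.07e-05) and -0.92 in LS174T (adjusted p = 0.00118), while -0.48 in LS513 and -0.45 in HCT116 were not called (adjusted p = 0.0560 and 0.0643). The summed level of the S phase list was 4559 to 4817 CPM in HT29 2D and 3697 to 3943 CPM in HT29 3D. Of the E2F and related regulators, 7, 7, 9 and 6 of 10 fell in HT29, LS513, HCT116 and LS174T. E2F3 changed by -1.08 in HT29 and by -0.60 to -0.73 in the other lines, and E2F7 fell by 0.62 to 0.83. The part of cell division in the lower TYMS, RRM1 and RRM2 was not tested.

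Genes of the interferon response were called higher in most of their list in HCT116 and HT29. Of its 15 genes, 15 rose in HCT116 and 12 in HT29, where 16.8% and 21.1% of all genes were called higher. In LS513 5 of the 11 with enough counts rose and 1 fell, against 13.7% of all genes called higher. In LS174T 2 of 15 rose and 1 fell, a share of rises near the 13.1% of all genes. The IFI6 level was 8.49 CPM in HCT116 2D against 294 CPM in 3D, and 1.29 against 11.3 CPM in HT29, and the gene was not called in the other 2 lines. The summed level of the list was 156 to 168 CPM in HCT116 2D and 1111 to 1683 CPM in HCT116 3D, against 201 to 207 and 207 to 262 CPM in LS174T. The log2 fold change of TYMP was 0.82 in HCT116, 0.89 in HT29, 0.64 in LS513 and 1.00 in LS174T. The LS174T value was 0.51 without 3D replicate 2, the library of its group with the highest summed level of the list (262 CPM). The part of the interferon response in the TYMP changes was not tested. CMPK2, a nucleotide kinase that is in both the interferon list and the kinase list, rose in HCT116 by 2.53 and in HT29 by 1.88.

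**Figure D5:**
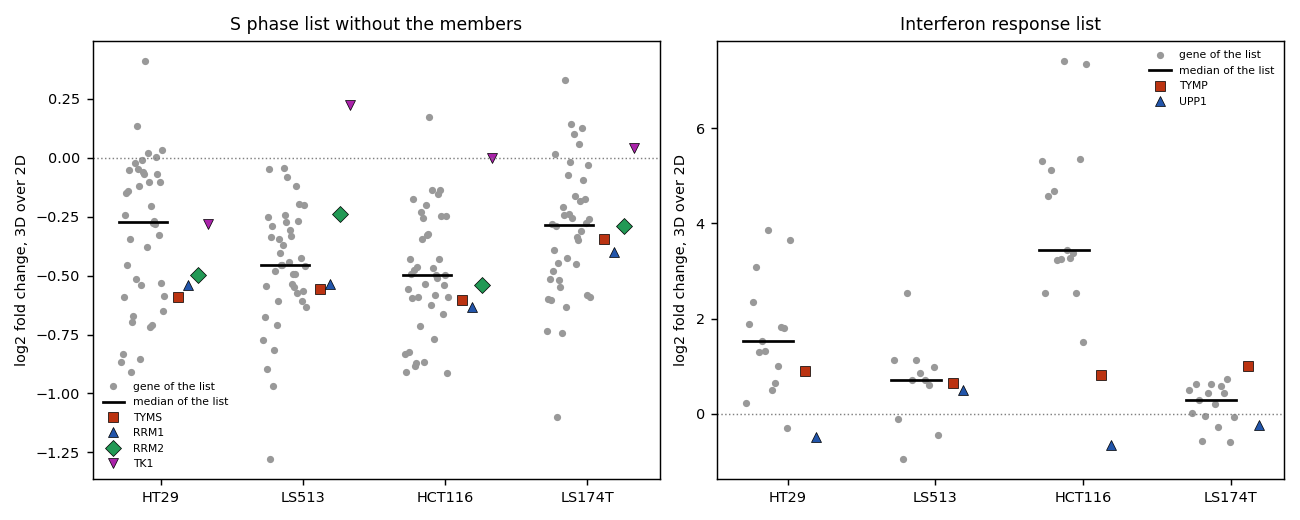
Log2 fold change of 3D over 2D of the S phase genes (left) and the interferon response genes (right) in each line, with grey points for genes, bars for list medians and coloured symbols for the genes described here. TYMS and RRM1 lie below the S phase median in all 4 lines and TK1 above it in LS513, HCT116 and LS174T, whereas TYMP lies below the interferon median in HT29, LS513 and HCT116 and above it in LS174T.

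The pattern of each gene over the 8 group means was compared with that of 14615 genes of at least 1 CPM on average. The measure was the root mean square difference of centred group means of log2 CPM, with 1 added to each CPM. The added 1 narrows differences between low levels, such as those of DPYD, and of TYMP in LS174T. The groups share lines, so these are descriptions. For TYMS the closest patterns were those of UHRF1 (0.117), NEIL3 (0.127) and HSF2 (0.143). For RRM1 they were TMEM201 (0.0712), TCOF1 (0.0856) and WDR5 (0.0950), and for RRM2 the overlapping AC007240.1 (0.0461), CAB39 (0.158) and EIF5A2 (0.164). The closest to TK1 were DUS2 (0.0908), MAP3K14 (0.0973) and HARS (0.102). TYMP, which itself varied by 1.35 over the groups on this scale, was followed by IL6R (0.160), TFAP2C (0.193) and TCEA2 (0.194). For UMPS the nearest were RYK (0.0427), UTP14A (0.0847) and MED4 (0.0865), and for UCK2 they were STX6 (0.0837), NBPF10 (0.0888) and IMP4 (0.0897). UPP1 and DPYD had no gene closer than 0.234 (CDR2L) and 0.189 (RNF139).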

How the data were processed

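RNA-seq counts of 191 technical replicates were used, 8 for each library and 7 for HT29 3D replicate 4, of which 1 sample was not analysed here. The deposited values are raw counts per gene. The authors demultiplexed with bcl2fastq 2.18.0.12, trimmed with Trim Galore 0.4.1, aligned single reads with STAR, removed reads that aligned more than once and counted overlaps with exons with HTSeq 0.5.3. The methods name Ensembl 91, and the submitters' processing notes name hg19. Positions and overlaps given here are those of GENCODE 29 on GRCh38, which holds 57980 of the 58243 identifiers, and promoter sequences are from RefSeq. Reads that align to several places were removed by the authors, so genes with near copies may be undercounted.

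Technical replicates were summed to 24 libraries with 18723942 to 34277421 counts. Groups were taken from the labels. The counts went into edgeR 4.0.16 under R 4.3.3, with filterByExpr (which kept 19387 genes), TMM scaling and robust quasi-likelihood tests in a model of the 8 groups that left 16 residual degrees of freedom. Benjamini-Hochberg adjustment ran over all 19387 genes. CPM values are on the TMM scale, and were divided by merged exon length to compare genes. A limit of 3 counts stands for counting error only. The S and G2/M phase lists are from Seurat 5.3.0, and the remaining lists were handwritten. The 9 genes and the lists were chosen with earlier results of these data known. All 9 genes are named, and of the related lists the genes called in 1 direction in all 4 lines, otherwise up to 4 per list with the smallest p, with MKI67, IFI6, the 3 closest patterns of each gene and the genes that overlap one. A few genes named by this rule are not reported here.

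Counts were also simulated with 200 genes changed in HT29, drawn from genes above a set mean count, and 19096 genes passed the filter. Of the changed genes, 89 of 100 changed by 1 and 34 of 100 changed by 0.5 on the log2 scale were called, with 4 false calls. In the measured HT29 libraries 7887 genes were called. The adjustment was therefore less strict there, and the simulated shares do not carry over to it. Alternatives were DESeq2 size factors, all genes with at least 1 count, a block of line and replicate number, the 6 libraries of a line fitted alone, DESeq2 1.42.0, technical replicate d left out, the study's fold cutoffs, and each library left out in turn.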

Additional observations from a re-analysis of the deposited data

Results flagged for a closer look

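A difference between lines in the 3D over 2D change of a gene marked 4 results, all tested with edgeR on the difference itself. UPP1 differed over the 4 lines (adjusted p = 0.0145), with log2 fold changes from -0.65 in HCT116 to 0.51 in LS513. Between pairs of lines, the UPP1 change in LS513 exceeded that in HCT116 by 1.16 (adjusted p = 0.0126), with all 3 libraries of 3D above those of 2D in LS513 and below them in HCT116. The UPP1 change in HT29 minus that in LS513 was -1.0 (adjusted p = 0.0177). The TK1 change in HT29 minus that in LS513 was -0.50 (adjusted p = 0.0338), although neither the TK1 change in LS513 (adjusted p = 0.151) nor the test over the 4 lines (adjusted p = 0.114) was called, and the difference was lost in 14 of the 24 fits with 1 library left out.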

How the results depend on the processing

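Of 204 log2 fold changes of the 9 genes under other settings, 175 kept their direction and side of the threshold, as did 162 of 204 with a library left out. TYMS and RRM1 were called lower in all 4 lines under each alternative, except TYMS in LS174T with the 6 libraries of the line alone (-0.35, adjusted p = 0.0651) and both genes in LS174T under the fold cutoffs. Replicate numbers did not pair the libraries (2 of 11 same-numbered pairs correlated above 0.1, range -0.21 to 0.22). With the replicate block 4 genes were lower in HT29, 0 were higher in HT29, LS513 and LS174T, and 0 differed between lines. DESeq2, its size factors, all genes and leaving out technical replicate d gave 5 lower in HT29, with TK1 lost in each. The fold cutoffs left 3 lower in HT29, 0 lower in LS174T and 0 higher in each line. LS513 had 2 higher with all genes, 2 with DESeq2 and 3 with its 6 libraries alone. LS174T had 1 lower and 0 higher with its 6 libraries alone, and 1648 genes called in all. On leaving out a library, the genes lower in HT29 numbered 4 to 5, and those higher in LS513 0 to 2 and in LS174T 0 to 1. The genes that differed between lines then numbered 0 to 3, an alternative added after seeing the data. Changes near 0 turned sign: UMPS in HT29 to 0.0089 (DESeq2 size factors), 0.017 (all genes) and 0.0086 (DESeq2), and TK1 in HCT116 to -0.030 (all genes) and -0.021 (6 libraries). With a library left out, UMPS in HT29 ranged from -0.037 to 0.086, TK1 in HCT116 from -0.061 to 0.053 and TK1 in LS174T from -0.14 to 0.17. The cause was not tested. Depth limits DPYD in LS513 and LS174T and TYMP in LS174T.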
